A study of Mus musculus with 10 samples.

Results

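Peroxins, the proteins that build peroxisomes, were followed together with other peroxisomal membrane proteins and with matrix enzymes that lie outside the β-oxidation steps. The 32 members were taken by symbol from the protein-coding rows of a table of 56748 genes, and all 32 symbols were found: 13 peroxins and 19 other proteins. Of the 32, 30 had a mean of at least 0.5 FPKM over all libraries and were tested among 13607 genes. FPKM is the number of fragments per kilobase of gene length, scaled by a factor per library. The transporter gene Abcd2 was listed at 0 FPKM in all 10 libraries, and Hacl1 lay below the filter.

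Peroxisomes are organelles bounded by a single membrane that shorten very long and branched fatty acids, begin the synthesis of ether lipids, and degrade the hydrogen peroxide that their oxidases release. They have no DNA of their own: matrix proteins are made in the cytosol, carried in by the receptors Pex5 and Pex7, and released inside before the receptors are recycled. In the liver of mice and rats, PPARα agonists are known to raise peroxisomal enzymes and to make peroxisomes more numerous, and Pex11a is a known PPARα target there. In the intestinal epithelium peroxisomes handle lipids from the diet.

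Mouse colon organoids, epithelial cultures grown from crypt cells, received 100 µM WY-14643, a synthetic PPARα agonist, or vehicle for 2 days, starting 3 days after passage. Polyadenylated RNA was sequenced from 5 WY-14643 libraries (replicates 6 to 10) and 5 vehicle libraries (replicates 1 to 5). The labels name no strain, sex, age, genotype or organoid line, and they name no group that lacks PPARα. They also do not say whether replicates came from separate cultures, and each p-value therefore reflects only variation among the 10 libraries, possibly technical.

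The libraries held 16136440 to 22209003 gene-assigned reads in WY-14643 and 15618244 to 29271304 in vehicle. All 11 markers listed for colon epithelium averaged at least 1 FPKM, while 6 fibroblast markers summed to at most 0.214 FPKM in WY-14643 and 0.185 FPKM in vehicle (Dcn and Lum at 0, Col1a1 the highest). The 5 immune markers summed to 0.169 to 1.32 FPKM in WY-14643 and 0.121 to 0.890 FPKM in vehicle, higher in 4 of 5 pairs, most of it Csf1r, with Cd3e at 0. The 7 markers of absorptive colonocytes summed to 45.1 to 1645 FPKM in WY-14643 and to 23.5 to 910 FPKM in vehicle, with the WY-14643 library higher in 4 of 5 pairs. Nearly all of this sum was Car1, a carbonic anhydrase also on the epithelial list, at 652 ± 613 FPKM in WY-14643 and 360 ± 360 FPKM in vehicle (SD, n = 5 each). Of the other 6, Guca2a was highest, at 7.16 ± 4.51 FPKM in WY-14643 and 5.36 ± 5.38 FPKM in vehicle (SD, n = 5 each). Slc26a3 and Ceacam20 were higher in 4 of 5 pairs, and Guca2a in 3 of 5. Aqp8 and Slc37a2, both below the filter, were higher in 2 of 5 pairs, and Car4 was at 0. The sum of 5 small-intestinal markers was 4.38 to 27.0 FPKM in WY-14643 and 3.91 to 10.2 FPKM in vehicle, higher in 5 of 5 pairs. It was almost wholly Fabp2, and each of the other 4 averaged at most 0.0249 FPKM in WY-14643 and 0.0193 FPKM in vehicle. The sum of 7 goblet markers was 18.7 to 76.7 FPKM in WY-14643 and 35.3 to 74.1 FPKM in vehicle. It was higher in 2 of 5 pairs. Muc2 and Clca1 were lower in 5 of 5 pairs, against 6.09% of all genes tested. Spink4, Zg16 and Agr2 were lower in 4 of 5, Tff3 was lower in 3 of 5, and Fcgbp was higher in 4 of 5. The part of these markers in the members' differences was not tested. Here a pair is a WY-14643 library and the vehicle library whose number is lower by 5. The deviations from the group means correlated within such pairs across genes (r = 0.423 to 0.782, at most 0.0602 for other combinations). No label states the pairing, so it rests on the data and the numerical order.

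In the limma fit without pairs, 0 of 13607 genes were called higher (0%) and 0 lower (0%) at an adjusted p under 0.05, and 138 higher (1.01%) and 67 lower (0.492%) had an unadjusted p under 0.05. Of the 30 members tested, 0 were called, and 6 had an unadjusted p under 0.05, all 6 higher after WY-14643. With the pairs as a block (the matched fit), limma called 39 genes higher (0.287%) and 4 lower (0.0294%), and 4 of these were members: Hsdl2, Pex11a, Pxmp4 and Idh1, all higher after WY-14643. The other 26 members tested did not pass. At an unadjusted p under 0.05 the matched fit had 7 members higher, against 5.48% of genes, and 0 lower, against 5.09%. With 1 pair left out, Hsdl2 kept an adjusted p under 0.05 in 3 of 5 fits (limma, 0.0190 to 0.125), and Pex11a (0.0578 to 0.142), Pxmp4 (0.0517 to 0.145) and Idh1 (0.0535 to 0.150) in 0 of 5. Without the filter on low values, none of the 4 passed (limma, matched adjusted p from 0.143 to 0.199 among 28804 genes). The median log2 fold change over the 30 members was 0.05, beside -0.01 over all genes tested. Fold changes are log2 differences of FPKM + 1, a scale that understates changes of genes with low values.

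The direction within pairs held more members than the background. WY-14643 was above vehicle in 5 of 5 pairs for 8 of the 30 members (26.7%), against 5.63% of all genes tested, and below in 5 of 5 for 0 members, against 6.09%. The 8 were Pex7, Pex11a, Pex11g, Abcd3, Pxmp4, Cat, Idh1 and Hsdl2. A total of 22 members (of 30) had a positive fold change, where 47.1% of all genes tested had. Groups did not overlap for 1 member, Hsdl2, against 0.243% of genes in that direction and 0.11% in the other. The members share libraries and can vary together, so these shares are descriptions and were not tested.

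**Figure D1:**
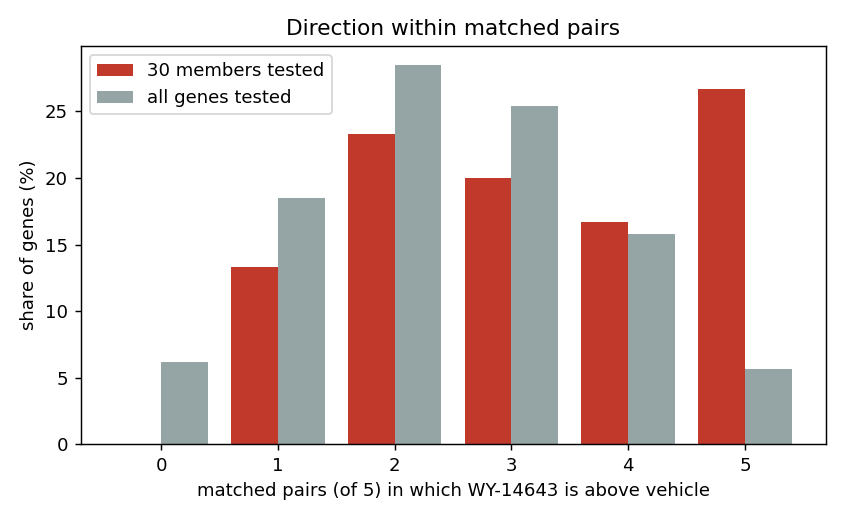
Share of genes (%, vertical axis) by the number of matched pairs, of 5, in which the WY-14643 library lay above its vehicle partner, for the 30 members tested (red) and for all 13607 genes tested (grey). At 5 of 5 pairs stand 26.7% of the members and 5.63% of all genes.

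The 4 members called in the matched fit lie in build mm39, as the table gives them, at chr7:79385705-79392879 (Pex11a, minus strand, ENSMUSG00000030545), chr2:154427678-154445628 (Pxmp4, minus strand, ENSMUSG00000000876), chr4:59581563-59618689 (Hsdl2, plus strand, ENSMUSG00000028383) and chr1:65197775-65225659 (Idh1, minus strand, ENSMUSG00000025950). These are whole-gene spans.

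Promoter sequence was read for the 25 members with an entry in the RefSeq promoter table, which is in build GRCm38.p6. PPARα binds DNA with RXR at a direct repeat of AGGTCA with a single base between the copies. The 250 bases before each annotated start were searched on both strands for AGGTCANAGGTCA, for the hexamer AGGTCA alone, and for GGGCGG, a motif of GC-rich promoters bound by Sp1-type factors. The repeat was in 0 of the 25, beside 0.0407% of 27025 genes in the table. The hexamer alone was in 2 of the 25 (8%), Cat and Pex11g, beside 15.8% of genes, and GGGCGG was in 18 (72%), beside 35.4%. The windows of members had a median of 60.2% G and C, against 52.4% over all windows. A missing match says only that these letters are not in this window, and the repeats known at PPARα targets can lie farther away.

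The windows of Pex11a and Hsdl2, the peroxin and the enzyme with the largest changes, are shown with those of the 2 members with an AGGTCA hexamer. Each runs 5′ to 3′ to the base before the start, with AGGTCA and GGGCGG, on either strand, in capitals; 2 of the 3 GGGCGG copies of Hsdl2 share a base, and no AGGTCA overlaps GGGCGG. They lie at chr7:79743132-79743381 (minus strand), chr4:59581313-59581562 (plus strand), chr2:103485154-103485403 (minus strand) and chr8:3467649-3467898 (minus strand).
Pex11a: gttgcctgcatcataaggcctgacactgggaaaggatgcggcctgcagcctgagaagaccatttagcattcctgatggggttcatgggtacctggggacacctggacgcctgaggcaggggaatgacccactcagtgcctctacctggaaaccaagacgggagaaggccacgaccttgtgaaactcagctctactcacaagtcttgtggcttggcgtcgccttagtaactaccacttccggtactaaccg
Hsdl2: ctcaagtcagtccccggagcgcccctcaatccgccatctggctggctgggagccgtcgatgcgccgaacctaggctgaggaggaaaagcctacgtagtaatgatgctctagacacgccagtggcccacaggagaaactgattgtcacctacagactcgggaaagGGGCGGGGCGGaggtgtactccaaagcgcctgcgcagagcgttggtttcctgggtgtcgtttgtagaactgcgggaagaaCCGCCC
Cat: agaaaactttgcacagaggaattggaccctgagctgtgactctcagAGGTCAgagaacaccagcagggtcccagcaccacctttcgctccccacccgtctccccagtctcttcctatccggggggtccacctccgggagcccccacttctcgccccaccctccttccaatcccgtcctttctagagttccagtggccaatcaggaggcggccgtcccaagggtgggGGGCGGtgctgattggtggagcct
Pex11g: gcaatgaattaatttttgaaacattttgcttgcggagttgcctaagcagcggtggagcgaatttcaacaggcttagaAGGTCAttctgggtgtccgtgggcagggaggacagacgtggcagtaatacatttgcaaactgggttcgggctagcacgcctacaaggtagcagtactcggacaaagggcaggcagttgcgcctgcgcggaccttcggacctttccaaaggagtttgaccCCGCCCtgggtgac
The Pex11a window held neither motif. The Hsdl2 window held 3 copies of GGGCGG, the copy nearest the start beginning 6 bases before it on the other strand. The AGGTCA of Cat began 204 bases and that of Pex11g 173 bases before the start, and both windows also held 1 GGGCGG. Cat and Pex11g were higher in 5 of 5 pairs without passing, while Pex11a and Hsdl2 passed in the matched fit. How these motifs relate to the changes was not tested.

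Pex11a, which elongates the peroxisomal membrane before the organelle divides, was the peroxin with the largest change. It stood at 3.35, 8.88, 4.65, 5.39 and 4.67 FPKM in WY-14643 replicates 6 to 10, against 2.001, 4.39, 3.02, 3.47 and 2.73 FPKM in vehicle replicates 1 to 5. The groups overlapped, because replicate 6 of WY-14643 was below replicates 2 and 4 of vehicle, yet every WY-14643 library was above its partner. The means were 5.39 ± 2.09 FPKM in WY-14643 and 3.12 ± 0.889 FPKM in vehicle (SD, n = 5 each), a ratio of 1.72. Its log2 fold change was 0.60 (95% interval 0.44 to 0.77; limma, matched adjusted p = 0.0318), and it was not called without pairs (interval 0.12 to 1.09; limma, unadjusted p = 0.0191). A long non-coding RNA gene on the other strand, Gm44706, overlaps Pex11a, at means of 1.93 FPKM in WY-14643 and 1.30 FPKM in vehicle, and its reads cannot be told apart from those of Pex11a if the libraries were unstranded.

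Pex11g, a peroxin of the same family, was at 1.67, 2.14, 2.12, 2.08 and 1.75 FPKM in WY-14643 replicates 6 to 10, against 1.44, 1.71, 1.72, 1.64 and 1.48 FPKM in vehicle replicates 1 to 5. WY-14643 was higher in all 5 pairs, by 0.13 to 0.22 on the log2 scale, a narrow range, while the groups overlapped. It did not pass (log2 fold change 0.18, 95% interval 0.04 to 0.32; limma, matched adjusted p = 0.333). Only 84 to 169 reads per library stood behind Pex11g, and 109 to 474 behind Pex11a. Whether Pex11a and Pex11g differ in their response was not tested.

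The 11 peroxins that assemble the membrane or import matrix proteins stayed close together: their log2 fold changes lay between -0.0038 and 0.13, none passed (limma, matched adjusted p from 0.488 to 0.990), and their matched 95% intervals ran from -0.19 at the lowest to 0.39 at the highest. Among these, Pex7 was higher in 5 of 5 pairs. Pex19, the chaperone that delivers membrane proteins, was at 20.7, 22.3, 21.4, 19.5 and 23.0 FPKM in WY-14643, against 18.7, 22.9, 19.9, 16.6 and 22.2 FPKM in vehicle. Pex16, which helps bring Pex3 to the membrane, was at 8.52, 10.7, 10.5, 12.2 and 8.34 FPKM in WY-14643, against 6.15, 11.6, 9.77, 10.9 and 10.7 FPKM in vehicle. In both genes the groups overlapped along most of their range. Pex3, the docking site of Pex19, averaged 4.14 ± 0.205 FPKM in WY-14643 and 4.06 ± 0.479 FPKM in vehicle (SD, n = 5 each).

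Pex5, the receptor for the C-terminal import signal that most matrix enzymes carry, varied little in WY-14643, at 9.22, 9.29, 9.43, 9.25 and 9.82 FPKM, against 7.42, 9.95, 9.14, 9.01 and 9.58 FPKM in vehicle. Its interval ran from -0.08 to 0.20 on the log2 scale. Pex7, the receptor for the N-terminal signal of Agps, Phyh and a few others, was at 2.90, 3.44, 3.05, 3.29 and 3.90 FPKM in WY-14643, against 2.53, 3.08, 3.03, 2.79 and 3.41 FPKM in vehicle. Its pair differences ranged from 0.01 to 0.18, and it did not pass (log2 fold change 0.12; limma, matched adjusted p = 0.488). Pex13 and Pex14 form the docking site at the membrane. Pex13 was at 6.04, 9.88, 7.88, 7.98 and 8.47 FPKM in WY-14643, against 6.88, 9.57, 8.12, 6.91 and 7.91 FPKM in vehicle, and Pex14 averaged 2.98 ± 0.164 FPKM in WY-14643 and 2.93 ± 0.458 FPKM in vehicle (SD, n = 5 each). Pex13 overlaps Pus10 on the other strand, which averaged 10.6 FPKM in WY-14643 and 9.55 FPKM in vehicle, so its level is uncertain. The same holds for Pex3, Pex16 and Gnpat, each overlapped on the other strand by a protein-coding gene. It also holds for Far1, overlapped by the long non-coding Far1os at 2.16 FPKM in WY-14643 and 2.99 FPKM in vehicle. Pxmp2 is likewise overlapped by the long non-coding Gm15788, at 1.32 FPKM in WY-14643 and 1.07 FPKM in vehicle.

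Pex2 and Pex10 are subunits of the ubiquitin ligase that marks Pex5 for recycling, and Pex6 is an ATPase, anchored by Pex26, that pulls the receptor out of the membrane. Pex2 was the most abundant peroxin, at 29.4, 26.7, 27.4, 29.5 and 27.2 FPKM in WY-14643, against 30.1, 22.9, 28.6, 33.7 and 26.3 FPKM in vehicle. The vehicle libraries spread wider and enclosed all 5 WY-14643 values. Pex10 was the least abundant member tested, at 2.12, 1.90, 1.91, 1.38 and 1.82 FPKM in WY-14643, against 1.93, 1.11, 1.51, 1.92 and 1.51 FPKM in vehicle, from 81 to 139 reads per library. Pex6 was at 12.3, 13.2, 14.6, 13.2 and 14.1 FPKM in WY-14643, against 9.47, 13.8, 11.9, 14.4 and 16.0 FPKM in vehicle, again inside the vehicle range. Pex26 averaged 8.74 ± 0.976 FPKM in WY-14643 and 8.47 ± 1.44 FPKM in vehicle (SD, n = 5 each).

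**Figure D2:**
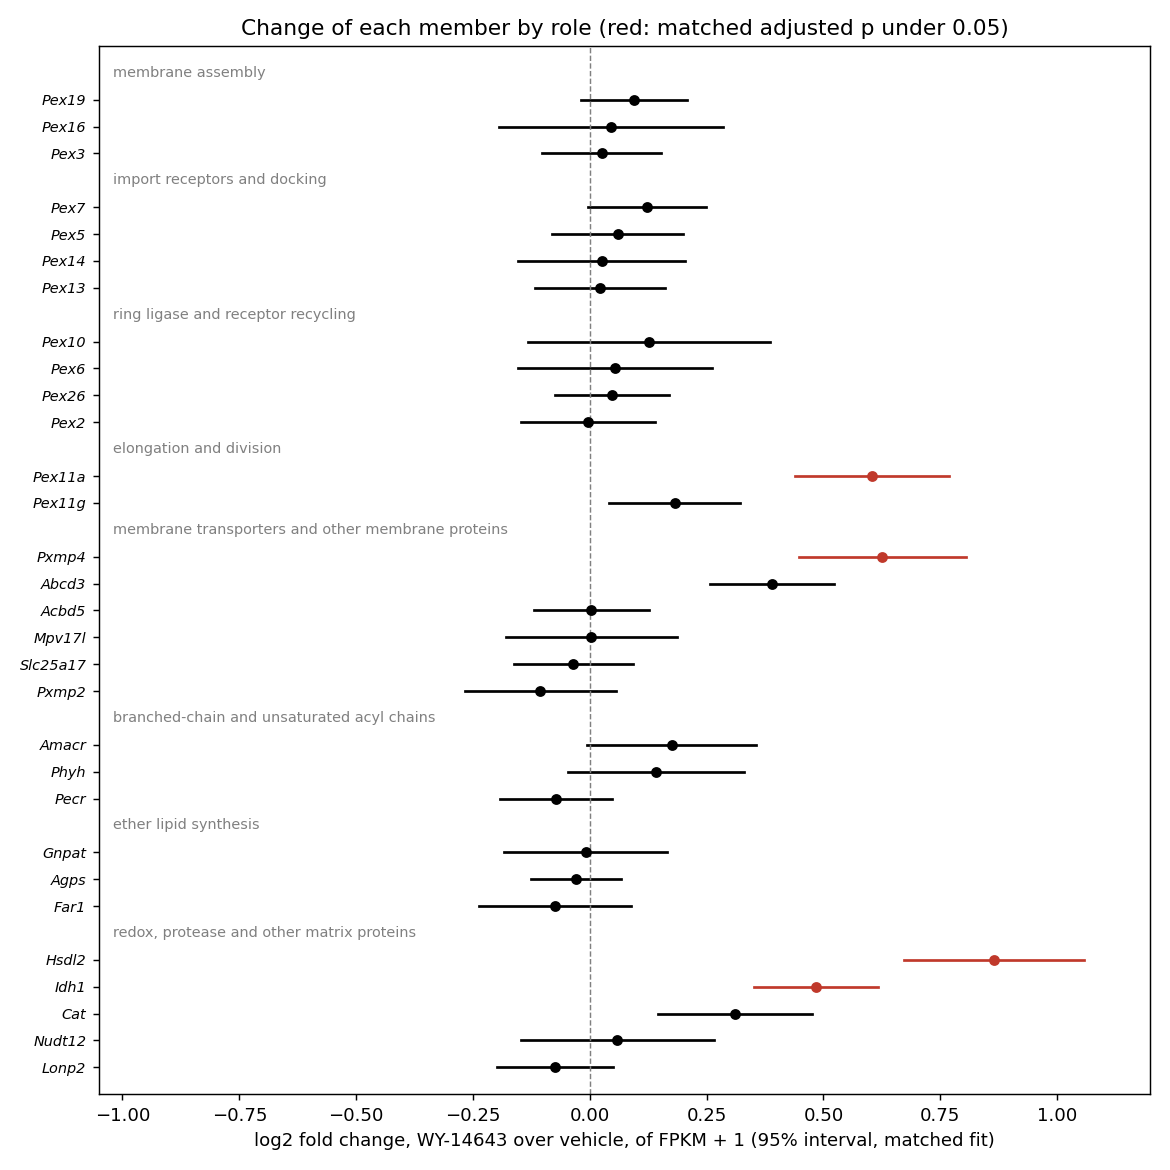
Log2 fold change of FPKM + 1 (horizontal axis), WY-14643 over vehicle, with its 95% interval from the matched fit, for the 30 members tested, grouped by role. Red marks Pex11a, Pxmp4, Hsdl2 and Idh1, with a matched adjusted p under 0.05; the 11 assembly and import peroxins lie between -0.0038 and 0.13.

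Among membrane proteins Pxmp4, a small integral protein of the peroxisomal membrane, changed most. It was at 5.02, 13.2, 8.86, 9.04 and 10.5 FPKM in WY-14643 replicates 6 to 10, against 3.40, 8.41, 5.98, 4.24 and 6.32 FPKM in vehicle replicates 1 to 5. The library of replicate 6 lay among the vehicle values, and each WY-14643 library was above its partner, by 0.45 to 0.94 on the log2 scale. The means were 9.32 ± 2.96 FPKM in WY-14643 and 5.67 ± 1.95 FPKM in vehicle (SD, n = 5 each), a ratio of 1.64. The log2 fold change was 0.63 (95% interval 0.45 to 0.81; limma, matched adjusted p = 0.0368); without pairs the interval ran from 0.07 to 1.18 and Pxmp4 was not called.

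Abcd3 encodes an abundant transporter of the peroxisomal membrane, which brings in branched-chain acyl-CoA and bile acid precursors. It was at 49.2, 60.8, 46.8, 41.4 and 35.4 FPKM in WY-14643, against 34.6, 45.4, 36.5, 28.8 and 30.9 FPKM in vehicle. The groups overlapped, but WY-14643 was higher in all 5 pairs, by 0.19 to 0.51, and the log2 fold change was 0.39 (95% interval 0.26 to 0.52). Its matched adjusted p of 0.0556 (limma) missed the threshold, and it passed in the matched fit on genes with a mean of at least 1 FPKM (limma, adjusted p = 0.0476); over the other filters and scalings its adjusted p was at most 0.260. Abcd2, a related transporter of very long acyl chains, was listed at 0 in both groups.

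The remaining membrane proteins did not pass and lay on both sides of 0. Slc25a17, a carrier of coenzyme A and other cofactors, was at 30.4, 22.5, 25.1, 23.7 and 27.8 FPKM in WY-14643, against 35.2, 21.4, 26.5, 22.1 and 29.0 FPKM in vehicle. Acbd5, which ties peroxisomes to the endoplasmic reticulum, averaged 12.2 ± 2.09 FPKM in WY-14643 and 12.1 ± 1.45 FPKM in vehicle. Mpv17l averaged 3.14 ± 0.568 FPKM in WY-14643 and 3.17 ± 0.816 FPKM in vehicle, and Pxmp2, a channel-forming protein, 3.75 ± 2.36 FPKM in WY-14643 and 4.01 ± 2.05 FPKM in vehicle (SD, n = 5 each). Pxmp2 showed how much the pairs could differ: replicates 6 and 1 stood at 7.72 FPKM (WY-14643) and 7.16 FPKM (vehicle), and replicates 10 and 5 at 2.05 FPKM (WY-14643) and 2.10 FPKM (vehicle).

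Hsdl2, a dehydrogenase-like protein with a sterol carrier domain that is found in peroxisomes and mitochondria, had the largest change of all members. It was at 17.3, 22.4, 17.4, 14.3 and 16.3 FPKM in WY-14643 replicates 6 to 10, against 9.91, 11.3, 8.90, 5.85 and 10.5 FPKM in vehicle replicates 1 to 5. The lowest WY-14643 library lay above the highest vehicle library. The means were 17.5 ± 3.01 FPKM in WY-14643 and 9.28 ± 2.10 FPKM in vehicle (SD, n = 5 each), a ratio of 1.89. The log2 fold change was 0.86 (95% interval 0.67 to 1.06; limma, matched adjusted p = 0.0202), with an adjusted p of 0.276 without pairs (limma). It was also the 1 member whose treatment difference exceeded the range of its pair means, 0.73 on the log2 scale.

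Idh1, the NADP-dependent isocitrate dehydrogenase of cytosol and peroxisomes, had the highest level of the members. It was at 192, 257, 191, 149 and 219 FPKM in WY-14643, against 144, 171, 144, 94.8 and 169 FPKM in vehicle. Replicate 9 of WY-14643 lay inside the vehicle range, and all 5 pairs were higher, by 0.37 to 0.65. The log2 fold change was 0.48 (95% interval 0.35 to 0.62; limma, matched adjusted p = 0.0318), a ratio of means of 1.39. Cat, the catalase that breaks down hydrogen peroxide, was at 39.5, 38.5, 39.7, 34.0 and 26.6 FPKM in WY-14643, against 33.3, 28.5, 31.7, 23.4 and 25.6 FPKM in vehicle. The groups overlapped, and WY-14643 was higher in every pair, but unevenly, from 0.06 in replicates 10 and 5 to 0.52 in replicates 9 and 4. Cat did not pass in the matched fit (log2 fold change 0.31, 95% interval 0.15 to 0.48; limma, matched adjusted p = 0.158).

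The remaining matrix proteins of this group did not pass. Lonp2, the peroxisomal protease, averaged 14.2 ± 0.814 FPKM in WY-14643 and 15.1 ± 1.59 FPKM in vehicle (log2 fold change -0.07, 95% interval -0.20 to 0.05). Nudt12, a hydrolase of NAD(H) and related nucleotides, averaged 5.33 ± 1.13 FPKM in WY-14643 and 5.02 ± 0.549 FPKM in vehicle (SD, n = 5 each).

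**Figure D3:**
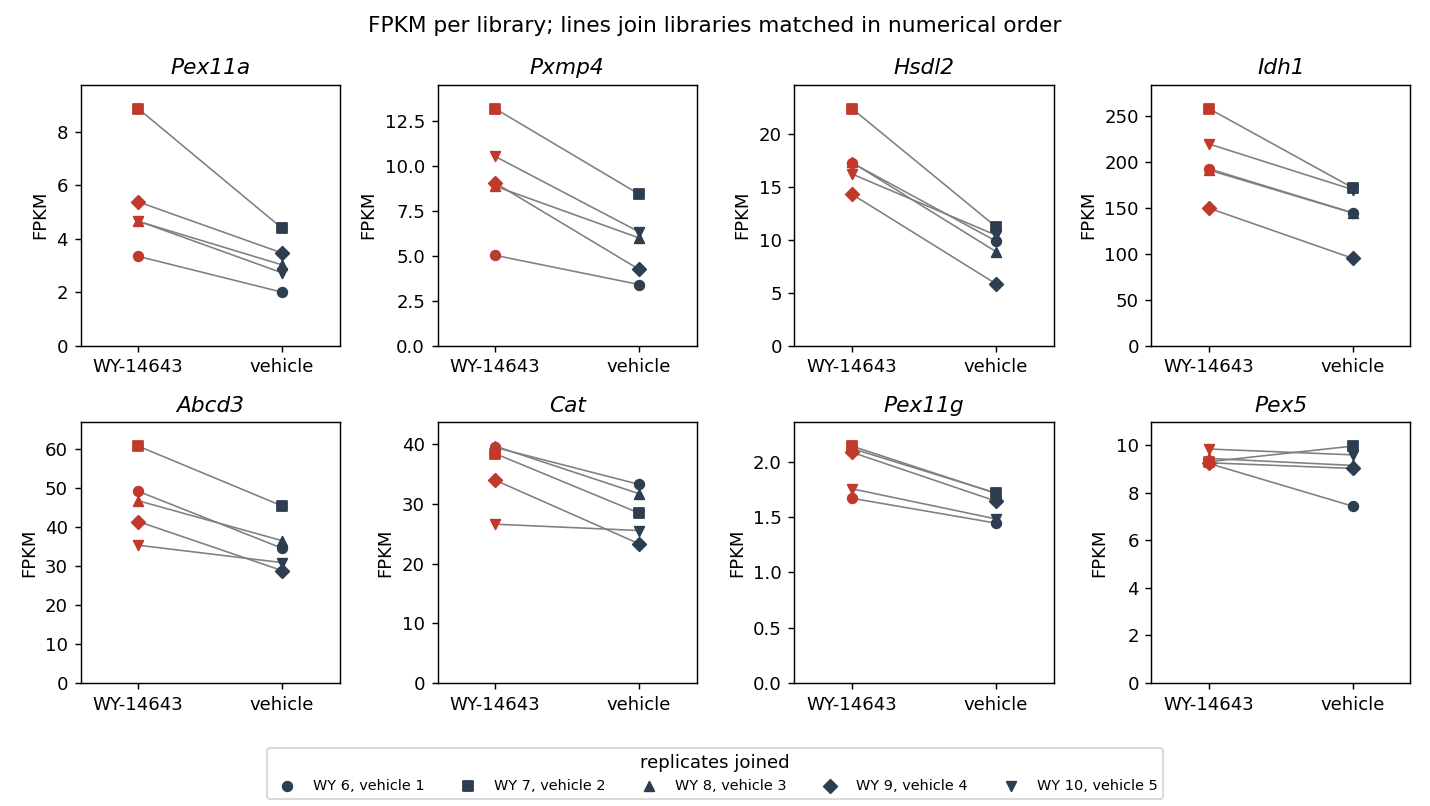
FPKM per library for Pex11a, Pxmp4, Hsdl2, Idh1, Abcd3, Cat, Pex11g and Pex5, with WY-14643 at the left (red) and vehicle at the right (dark) of each panel and lines joining libraries matched in numerical order. In the 7 panels other than Pex5 all 5 lines stand higher at WY-14643, and in Hsdl2 the groups do not overlap.

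The enzymes that prepare branched and unsaturated acyl chains did not pass. Phyh, which hydroxylates phytanoyl-CoA at the start of α-oxidation, was at 2.86, 7.15, 4.02, 5.91 and 3.65 FPKM in WY-14643, against 1.88, 6.80, 4.18, 4.76 and 3.62 FPKM in vehicle. Pecr, a reductase of trans-2-enoyl-CoA, was at 3.07, 3.26, 3.80, 4.78 and 1.97 FPKM in WY-14643, against 3.04, 3.43, 4.13, 5.10 and 2.28 FPKM in vehicle. In Pecr partners lay close together and pairs far apart. The pairs of Phyh also lay far apart, while its partners differed by -0.04 to 0.42 on the log2 scale. Amacr, the racemase that turns branched acyl-CoA to the form that can be oxidised, was at 1.81, 2.38, 2.32, 2.48 and 2.73 FPKM in WY-14643, against 1.41, 2.31, 2.35, 1.75 and 2.04 FPKM in vehicle, higher in 4 of 5 pairs (log2 fold change 0.18, 95% interval -0.01 to 0.36; limma, matched adjusted p = 0.485). Hacl1, the lyase that follows Phyh, averaged 0.121 ± 0.0362 FPKM in WY-14643 and 0.142 ± 0.0692 FPKM in vehicle (SD, n = 5 each), from 3 to 22 reads per library, and was not tested. A gene on the other strand, Btd, overlaps Hacl1 and averaged 3.92 FPKM in WY-14643 and 3.78 FPKM in vehicle.

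Ether lipid synthesis begins in peroxisomes with Gnpat, which acylates dihydroxyacetone phosphate, and Agps, which exchanges that acyl chain for a fatty alcohol made by Far1. The means of the 3 genes were 17.7 to 28.3 FPKM in WY-14643 and 18.0 to 30.6 FPKM in vehicle, and none passed (limma, matched adjusted p from 0.764 to 0.982). Gnpat was at 24.0, 22.5, 23.1, 19.0 and 24.3 FPKM in WY-14643, against 22.5, 19.6, 21.6, 23.3 and 26.7 FPKM in vehicle. Far1, the rate-limiting enzyme of plasmalogen synthesis, was at 37.5, 26.3, 27.1, 21.3 and 29.2 FPKM in WY-14643, against 47.9, 27.1, 27.7, 19.2 and 31.4 FPKM in vehicle. Agps was at 25.9, 15.2, 17.5, 14.5 and 15.1 FPKM in WY-14643, against 26.6, 14.9, 17.1, 15.4 and 16.2 FPKM in vehicle. Replicates 6 and 1 were the highest of their groups in both Far1 and Agps. The same 2 libraries had the highest sums of 6 markers of stem and proliferating cells, 160 FPKM in WY-14643 and 172 FPKM in vehicle. The other libraries had 45.3 to 108 FPKM in WY-14643 and 38.2 to 119 FPKM in vehicle. Highest of the 6 by mean were Mki67 (40.6 FPKM in WY-14643 and 41.7 FPKM in vehicle) and Top2a (35.3 FPKM in WY-14643 and 36.3 FPKM in vehicle). Lgr5 averaged 3.79 FPKM in WY-14643 and 4.79 FPKM in vehicle, and was lower in 5 of 5 pairs, against 6.09% of all genes tested. Axin2 and Smoc2 were lower in 4 of 5, Mki67 and Top2a in 3 of 5, and Ascl2 was higher in 4 of 5. The part of cell state in the levels of Far1 and Agps was not tested.

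**Figure D4:**
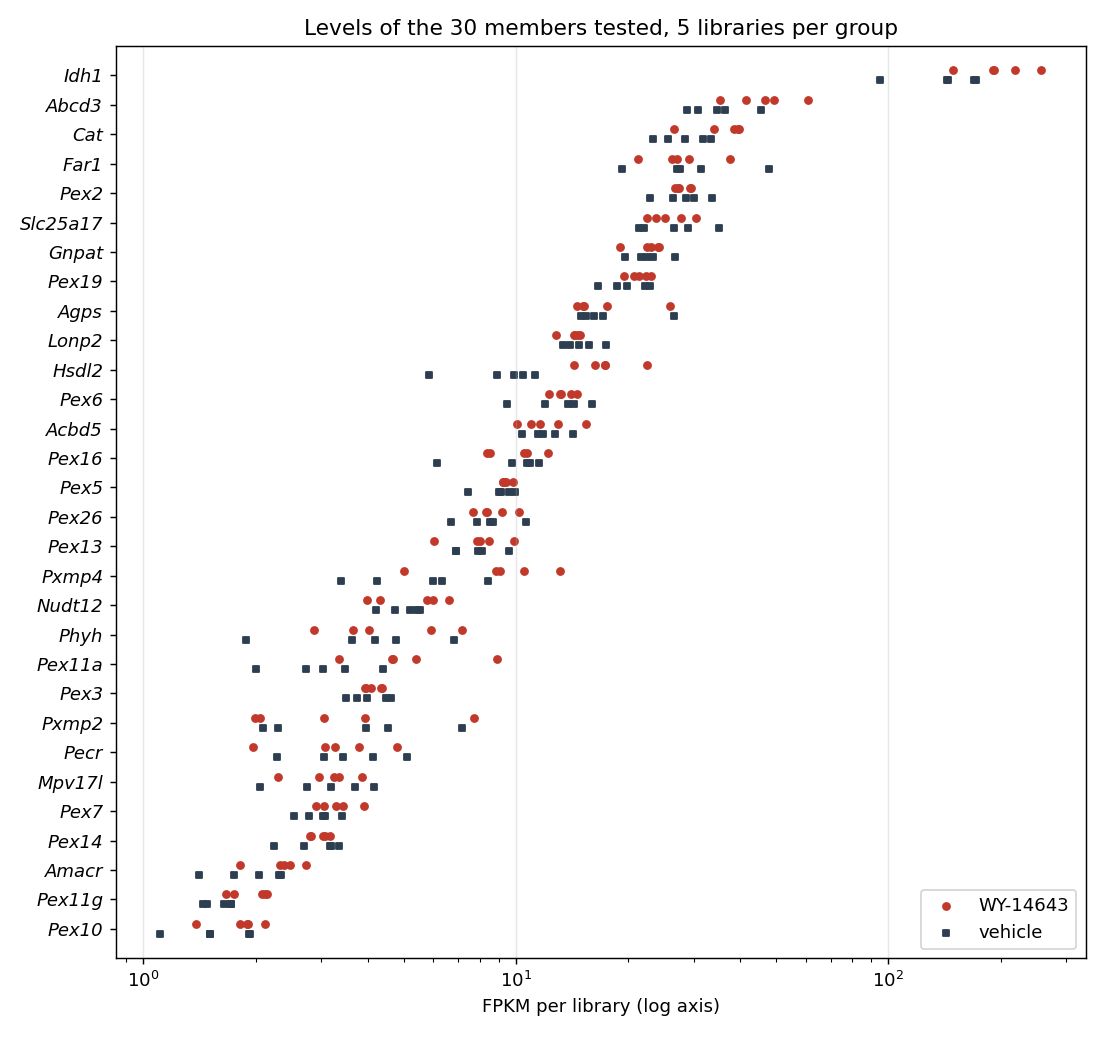
FPKM per library on a log axis for the 30 members tested, ordered by mean level, with WY-14643 libraries as red circles above and vehicle libraries as dark squares below in each row. Idh1 averaged 202 FPKM in WY-14643 and 145 FPKM in vehicle, above every other member, and Pex10 was lowest at 1.83 FPKM in WY-14643 and 1.60 FPKM in vehicle.

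The range of the 5 pair means was wider than the treatment difference in 29 of the 30 members. The share over all genes tested was not counted. A fold change near 0 meets this easily, so the count shows no trait particular to the members. The pair means of Pxmp2 ranged over 1.46 on the log2 scale, those of Phyh over 1.26, of Pxmp4 over 1.17 and of Pex11a over 1.02, while those of Pex11g ranged over 0.19 and of Pex5 over 0.21. Replicates 6 and 1 formed the lowest pair in 13 members, Pex11a, Pxmp4, Phyh and Pex5 among them, and the highest in 7, among them Far1, Agps, Pxmp2 and Cat. Replicates 7 and 2 formed the highest pair in 12 members, Pex11a, Pxmp4, Hsdl2, Abcd3 and Idh1 included. The sums of colonocyte markers, nearly all Car1, were 332, 848, 450, 1645 and 45.1 FPKM in WY-14643 replicates 6 to 10, against 93.9, 910, 253, 568 and 23.5 FPKM in vehicle replicates 1 to 5. Hsdl2, Pxmp4 and Idh1 had their largest pair differences in replicates 9 and 4, at 1.16, 0.94 and 0.65 on the log2 scale. There the sum was 1645 FPKM in WY-14643 and 568 FPKM in vehicle. In replicates 6 and 1 the sum was 332 FPKM in WY-14643 and 93.9 FPKM in vehicle. Hsdl2, Pxmp4 and Idh1 differed by 0.75, 0.45 and 0.41 there, and 0.45 was the smallest pair difference of Pxmp4. Pex11a had its largest pair difference, 0.87, in replicates 7 and 2. There the sum was 848 FPKM in WY-14643 and 910 FPKM in vehicle. The sums are not on a log scale, and the part of these markers in the differences was not tested. Fewer cells of a type and less RNA per cell cannot be told apart in such bulk RNA.

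**Figure D5:**
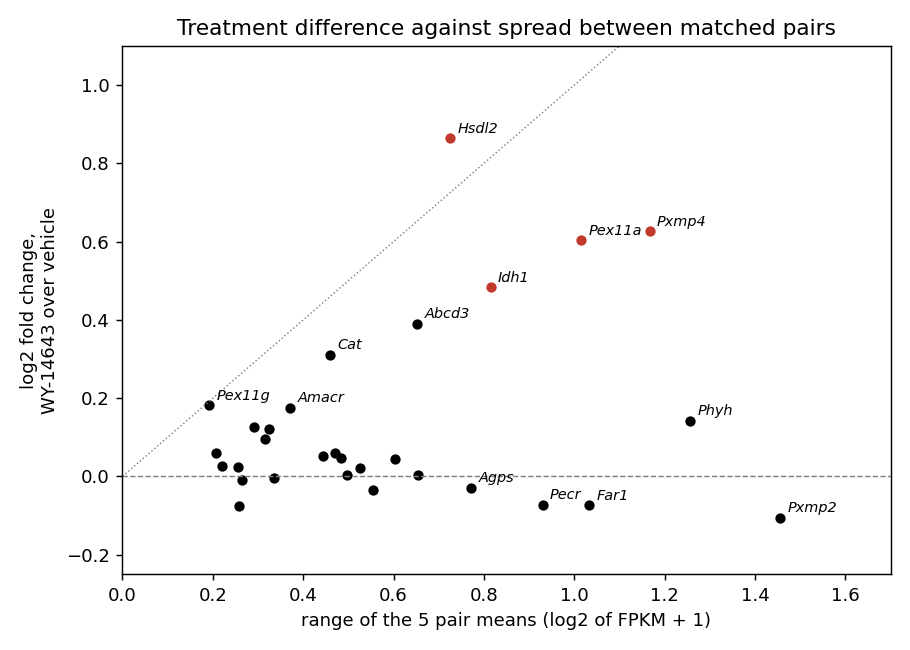
Log2 fold change of FPKM + 1, WY-14643 over vehicle (vertical axis), against the range of the 5 pair means on the same scale (horizontal axis), for the 30 members tested; the dotted line marks equality and red marks a matched adjusted p under 0.05. Hsdl2 lies above the line, and Pxmp2, Phyh and Far1 lie far to the right, near a fold change of 0.

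Other genes of the organelle, from lists drawn up for comparison, gave this picture in the matched fit (limma, adjusted over all genes tested). Of 15 peroxisomal β-oxidation genes tested, 3 rose and 0 fell, against 0.287% and 0.0294% of all genes tested; none of the 3 was called without pairs (limma, adjusted p of at least 0.112). These were Eci2, an enoyl-CoA isomerase, at 5.94 ± 0.569 FPKM in WY-14643 and 3.56 ± 0.204 FPKM in vehicle; Ech1, a dienoyl-CoA isomerase that is also mitochondrial, at 74.4 ± 17.7 FPKM in WY-14643 and 44.1 ± 13.0 FPKM in vehicle; and Ehhadh, the bifunctional enzyme, at 5.15 ± 1.35 FPKM in WY-14643 and 3.07 ± 0.683 FPKM in vehicle (SD, n = 5 each). The median log2 fold change over the 15 was 0.16, and 8 of the 15 were higher in 5 of 5 pairs, against 5.63% of all genes tested. The largest fold change of the list, in Acaa1b, a thiolase whose reads are uncertain because Acaa1a is a near-identical copy, did not pass (log2 fold change 0.89, 95% interval 0.36 to 1.41; limma, matched adjusted p = 0.208), although its groups did not overlap: it averaged 1.91 ± 0.958 FPKM in WY-14643 and 0.524 ± 0.264 FPKM in vehicle (SD, n = 5 each).

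None of the 3 other peroxins tested, of 10 other matrix enzymes, of 11 genes of division, tethering and turnover, or of 5 enzymes of ether lipid synthesis in the endoplasmic reticulum passed in either direction, with medians of 0.01, 0.02, 0.01 and 0.06. In the last 3 of these lists the smallest p belonged to the polyamine oxidase gene Paox (log2 fold change -0.21, matched adjusted p = 0.264), to Acbd4, a tether to the endoplasmic reticulum (0.24, 0.390), and to Cept1, a phosphotransferase of phospholipid synthesis (0.22, 0.290). Of the 10 other matrix enzymes, 2 (Hao2 and Mlycd) were higher in 5 of 5 pairs, against 5.63% of all genes tested. Paox was the 1 lower in 5 of 5, against 6.09%. Of the 11 genes of division, tethering and turnover, 2 were higher in 5 of 5 pairs, against 5.63% of all genes tested. These were Fis1 (32.3 ± 4.75 FPKM in WY-14643 and 30.4 ± 4.96 FPKM in vehicle) and Nbr1 (36.5 ± 5.26 FPKM in WY-14643 and 34.3 ± 4.86 FPKM in vehicle). Lower in 5 of 5 pairs was 1 gene, against 6.09%: Dnm1l, the dynamin-like protein that cuts peroxisomes and mitochondria. It was at 40.4 ± 3.11 FPKM in WY-14643 and 43.8 ± 5.46 FPKM in vehicle (SD, n = 5 each). Fis1, Nbr1 and Dnm1l did not pass (limma, matched adjusted p from 0.454 to 0.506). The receptor gene Ppara itself was low, at 0.336 ± 0.177 FPKM in WY-14643 and 0.298 ± 0.174 FPKM in vehicle (SD, n = 5 each), and was not tested. The related receptor genes stood higher. Ppard was at 14.7 ± 1.79 FPKM in WY-14643 and 14.0 ± 2.05 FPKM in vehicle. Pparg was at 22.9 ± 8.32 FPKM in WY-14643 and 28.9 ± 16.7 FPKM in vehicle (SD, n = 5 each). Neither Ppard nor Pparg passed in the matched fit.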

How the data were processed

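RNA of 10 mouse colon organoid libraries was analysed from 1 table. The deposited values are FPKM, which the authors made per gene and library; reads were aligned by HISAT2 2.0.5 and counted by featureCounts 1.5.0-p3 on mm39, per the submitters' processing notes. For annotation release, library scaling and multiply matching reads, nothing is given in the sources used here. Stranded and unstranded synthesis are both described, per the labels' protocols, without the choice made. FPKM times the deposited gene length was a whole multiple of the smallest such value in 100% of values above 0 (tolerance 0.01), which gave the reads behind each value.

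Genes with a mean of at least 0.5 FPKM were tested by limma 3.58.1 in R 4.3.3 on log2(FPKM + 1) (trended, robust eBayes, Benjamini-Hochberg over 13607 genes, threshold 0.05), without pairs and, in the matched fit, with pairs as a block. The scripts were tested on simulated reads with 200 changed genes and the pairing built in. The matched fit called 199 genes, 13 of them unchanged. It recovered 89% of 1.5-fold and 97% of 2-fold changes. Without pairs 63 genes were called, 0 of them unchanged, and 10% and 53% of these changes were recovered. Alternatives were a pseudocount of 0.1, other filters, rescaling to TPM or by median ratios, and leaving out libraries or pairs. The median ratio to the geometric mean was 1.01 in every library, so median-ratio scaling changed no relation between libraries.

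The members, gene lists and tests were chosen with earlier results of these data known. Values per library are given for members called in either fit, and, in each of 8 role groups, for the 2 with the highest mean and the member with the smallest matched p; others have means. Agps, Acaa1b, Dnm1l, Fis1, Nbr1, Hao2, Mlycd, Ppara, Ppard and Pparg were added after their values were seen. Some genes of the comparison lists are not reported here by name. Figures used matplotlib 3.10.9 in Python 3.11.15.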

Additional observations from a re-analysis of the deposited data

Results flagged for a closer look

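Agps, the alkyl-DHAP synthase of ether lipid synthesis, had a library far above the rest of its group in both groups. It was at 25.9 FPKM in WY-14643 replicate 6, where the other 4 WY-14643 libraries had 14.5 to 17.5 FPKM, and at 26.6 FPKM in vehicle replicate 1, where the other 4 vehicle libraries had 14.9 to 17.1 FPKM. These libraries form a matched pair. Dixon's test, at its 95% critical value for 5 samples, was applied to 62 groups of values, 31 members in each treatment, and chance flags about 1 in 20 such groups.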

How the results depend on the processing

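The calls depend on the pairing. Without pairs, limma called 0 genes, and 0 to 2 higher with 1 library left out: 1 when vehicle replicate 2 or WY-14643 replicate 10 was dropped, and 2 when vehicle replicate 5 was. With the pairs as a replicate block the counts were 39 higher and 4 lower, with 4 members. The groups share no replicate number in the labels, so the pairing is a hint from the data. Fitted with pairs, 2 genes passed as higher and 0 as lower without the filter, and 1 as lower on TPM; with 1 pair left out 2 to 30 were higher and 0 to 6 lower. Members called numbered 0 without the filter and 0 to 1 with 1 pair left out. These settings have fewer pairs or more genes tested, with eBayes refitted each time, and the part of each was not tested. The median log2 fold change of members was 0.034 to 0.089 with 1 library left out, highest without WY-14643 replicate 6. Signs turned only in members that were not called: to -0.0027 for Acbd5 on TPM, and within these ranges of log2 fold changes with 1 library left out: Pex3 -0.016 to 0.065, Pex16 -0.097 to 0.11, Pex5 -0.0015 to 0.093, Pex13 -0.048 to 0.11, Pex14 -0.042 to 0.064, Pex2 -0.075 to 0.059, Pex6 -0.049 to 0.13, Pex26 -0.025 to 0.12, Slc25a17 -0.11 to 0.065, Pxmp2 -0.35 to 0.094, Mpv17l -0.10 to 0.085, Acbd5 -0.079 to 0.064, Phyh -0.056 to 0.30, Pecr -0.19 to 0.059, Gnpat -0.058 to 0.049, Agps -0.17 to 0.11, Far1 -0.22 to 0.098, Nudt12 -0.012 to 0.14. Voom with TMM was computed on the recovered reads and set aside, because the deposited values are FPKM and not counts. With pairs it called more genes than limma on FPKM, and it called Abcd3 and Cat, which the matched limma fit did not. Its values are not given. Read number limits Pex10 and Pex11g, at 81 to 139 and 84 to 169 reads per library.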
